A study of Mus musculus with 8 samples.

Results

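Complement is a set of plasma and cell-surface proteins that tags microbes, immune complexes and dying cells for removal. In the classical route, C1q binds its target and activates the proteases C1r and C1s, which cleave C4 and C2 so that C3, the central component, can be split. Properdin, the product of Cfp, stabilizes the C3-splitting enzyme of the alternative route, and the C1 inhibitor, the product of Serping1, blocks C1r and C1s. The small fragments released from C3 and C5 act on leukocytes through the receptors C3ar1 and C5ar1. Liver makes most plasma complement, whereas C1q is made mainly by macrophages and dendritic cells. Neutrophils and monocytes store properdin and carry C5ar1, and stromal cells can make C1 inhibitor and C3.

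The genes followed here were 9 complement components, receptors and inhibitors chosen by symbol, of which 8 were rows among the 13387 genes of the count table. C1qa, C1qb, C1qc, Cfp, C3ar1 and C5ar1 were taken as the 6 macrophage-type genes, and C3 and Serping1 as the 2 stromal-type genes. C4b was not analysed here. Bulk RNA-Seq covered wild-type C57BL/6 murine MKs cultured alone (n = 4 libraries) and MKs cocultured with wild-type bone marrow MSCs (n = 4 libraries), each for 18 hours, with wells pooled for each library. The MSCs were CD45-, Ter119-, CD31-, CD51+ and CD140a+ sorted cells, and the methods describe the MKs as bone marrow cells enriched with CD41 beads in medium with thrombopoietin, so the MK cultures could also hold other marrow cells. The deposited design names the sequenced cells as MKs freed of platelets, whereas the paper's methods name platelets. The comparison addresses how transcript levels in the bulk RNA differ between cocultures with MSCs and MKs cultured alone. The paper counts the replicates of this experiment as mice, but nothing in the labels ties each library to its own animal, and p-values measure the spread between these libraries.

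Libraries held between 4939874 and 12523616 counts. Replicate 3 of the cocultures stood apart. It had 0 counts for 1012 genes whose lowest count among the remaining libraries was 10 or more, whereas no other library lacked more than 4 such genes. The labelled cell type was checked against 15 MK and platelet markers, whose summed level was 2519 to 2844 CPM (counts relative to the TMM-scaled library size) in MKs cultured alone and 1868 to 2465 CPM in cocultures. The 12 neutrophil markers summed to between 84740 and 86580 CPM in MKs cultured alone and to between 4363 and 10240 CPM in cocultures. Of these lists, 2 of 15 MK markers and 12 of 12 neutrophil markers were called lower in cocultures. The 11 macrophage markers rose from between 185.8 and 255.3 CPM to between 2384 and 2612 CPM, with 9 of the 10 tested called higher. The 11 MSC markers in the table went from between 14.6 and 19.5 CPM to between 1262 and 3856 CPM, with 8 of the 9 tested called higher. In bulk RNA, a change in the number of cells of one type and a change in RNA per cell cannot be told apart.

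Promoter sequence from RefSeq (GRCm38.p6, the build of mm10) was held for 6 of the 9 genes. The bases from 130 to 11 before the transcription start are shown for 3 genes that were higher in cocultures and for C3, which was lower, so that the gene control regions of both directions can be read side by side. Capitals mark letters searched on both strands within 250 bases before the start, namely GAGGAA (the core that the myeloid factor PU.1 binds), TTGCNNAA (a C/EBP half-site pair) and TGANTCA (the AP-1 element).
C1qb, chr4:136886211-136886330, minus strand: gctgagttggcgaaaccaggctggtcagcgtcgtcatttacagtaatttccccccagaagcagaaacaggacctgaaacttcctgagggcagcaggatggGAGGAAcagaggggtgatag
Cfp, chrX:20931566-20931685, minus strand: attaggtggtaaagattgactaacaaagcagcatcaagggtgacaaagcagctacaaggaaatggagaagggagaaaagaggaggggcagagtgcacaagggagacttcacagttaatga
C3ar1, chr6:122856168-122856287, minus strand: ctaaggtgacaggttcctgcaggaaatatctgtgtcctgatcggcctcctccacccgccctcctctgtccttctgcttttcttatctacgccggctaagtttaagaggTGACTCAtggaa
C3, chr17:57228147-57228266, minus strand: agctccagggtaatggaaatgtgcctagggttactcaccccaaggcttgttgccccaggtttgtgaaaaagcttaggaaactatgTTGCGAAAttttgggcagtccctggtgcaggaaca
C1qb carried GAGGAA from 30 to 25 bases before its start, and C1qc carried it on the other strand from 193 to 188 bases before its start. The C3ar1 promoter held TGACTCA from 22 to 16 bases before the start, and the C3 promoter held TTGCGAAA from 45 to 38 bases before it. In the whole RefSeq promoter set, 23.3% of windows held GAGGAA, 9.56% held TTGCNNAA and 6.75% held TGANTCA, so these matches only describe the letters. None of the 3 motifs was in the windows of Cfp and C5ar1.

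All 8 genes passed the filter on low counts and differed between the groups. Coculture libraries had higher levels of C1qa, C1qb, C1qc, Cfp, C3ar1 and Serping1, and lower levels of C3 and C5ar1. By edgeR's quasi-likelihood test at a fold change of at least 2 and an adjusted p of at most 0.05, 6 genes were called higher and 2 lower. Among all 11722 genes tested, 13.2% were called higher and 7.31% were called lower. In each of the 8 genes the groups did not overlap, a pattern found upward in 19.3% and downward in 21.1% of all genes tested. The division into macrophage-type and stromal-type genes was not the division by direction, since 1 of the 6 macrophage-type genes and 1 of the 2 stromal-type genes were the ones called lower. The median log2 fold change was 4.75 over the 6 macrophage-type genes, against 0.034 over all genes tested. The genes and gene lists used here were chosen with earlier results of these data known, so comparisons with all genes only describe them. C1qa, C1qb, C1qc and Serping1, with 6, 21, 28 and 0 counts summed over the MK-alone libraries, passed the filter through the cocultures.

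**Figure D1:**
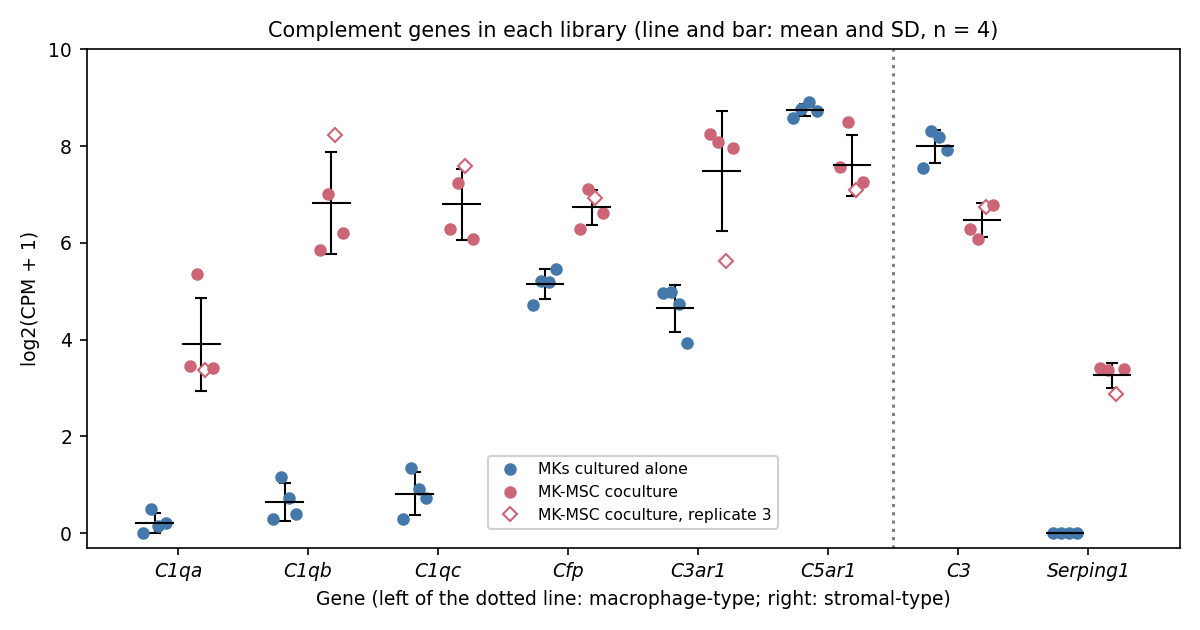
Level of each complement gene, as log2(CPM + 1), in the 4 libraries of MKs cultured alone and the 4 coculture libraries, with the mean and SD of each group and replicate 3 of the cocultures as an open diamond. Every coculture value lies above every MK-alone value for C1qa, C1qb, C1qc, Cfp, C3ar1 and Serping1, and below for C5ar1 and C3.

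C1q is assembled from A, B and C chains, each with a collagen-like stem and a globular head that binds the target, and all of them are needed for the secreted protein. Their genes lie side by side on chromosome 4 of GRCm38 within 18.7 kilobases, from 136880129 to 136898803, and all are on the minus strand. By rising coordinate the order is C1qb, C1qc and C1qa. In MKs cultured alone the chains were close to the limit of detection, where 3 counts correspond to between 0.309 and 0.662 CPM.

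C1qb (ENSMUSG00000036905.8) had 0.221, 1.24, 0.665 and 0.325 CPM in replicates 1 to 4 of MKs cultured alone. In cocultures it had 57.1, 127.9, 297.1 and 73.0 CPM. The highest coculture value was that of replicate 3, and the other cocultures were all far above the MK-alone libraries. C1qb had a log2 fold change of 7.68 ± 0.79 (SE; edgeR, adjusted p = 0.000215), and 6.89 ± 0.39 without replicate 3 of the cocultures.

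C1qc (ENSMUSG00000036896.5) had 0.221, 1.55, 0.887 and 0.651 CPM in MKs cultured alone and 76.9, 149.0, 190.9 and 66.8 CPM in cocultures. Replicates 2 and 3 were again the higher cocultures. Its log2 fold change was 7.08 ± 0.63 (SE; edgeR, adjusted p = 0.000107), and 6.67 ± 0.39 without replicate 3.

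C1qa (ENSMUSG00000036887.5) was detected least of the chains, with 0, 4, 1 and 1 counts in MKs cultured alone. Its cocultures held 106, 306, 90 and 56 counts, or 10.1, 39.9, 9.42 and 9.71 CPM. Replicate 2 stood above the other cocultures, which differed little from each other. C1qa had a log2 fold change of 6.39 ± 0.98 (SE; edgeR, adjusted p = 0.00205), with the largest standard error of the chains, and 6.50 ± 0.67 without replicate 3.

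The proportions of the chains were compared per kilobase of transcript, because the transcripts differ in length (1040 bases for C1qa, 1088 for C1qb and 1203 for C1qc). In the cocultures C1qb made up 41.6%, 42.0%, 62.0% and 50.9% of the summed level, and C1qc 50.7%, 44.3%, 36.0% and 42.1%. C1qa made up 7.67%, 13.7%, 2.06% and 7.08%, the smallest share in every coculture. Replicate 3 thus had the most C1qb and the least C1qa, and C1qb exceeded C1qa per kilobase 30.2-fold there against 3.07-fold to 7.19-fold in the other cocultures. As a share of C1q counts, C1qa was 1.89% in replicate 3 (95% Wilson interval 1.54 to 2.32%), outside the intervals of the other cocultures, of which the lowest was 5.04 to 8.34%. These intervals cover counting error only. Replicate 2 lay highest, at 12.6% (11.3 to 13.96%).

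The libraries of MKs cultured alone held only 2, 31, 15 and 7 counts on the chains together. Pooled over these 4 libraries, C1qa was 10.9% of 55 counts (Wilson interval 5.10 to 21.8%), an interval that holds the shares of coculture replicates 1, 2 and 4. A difference in C1qa share from those cocultures was therefore not detectable at this depth. The share in replicate 3, 1 library, lay below the interval. This interval leaves out the spread between libraries, so it does not show a difference between the groups.

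**Figure D2:**
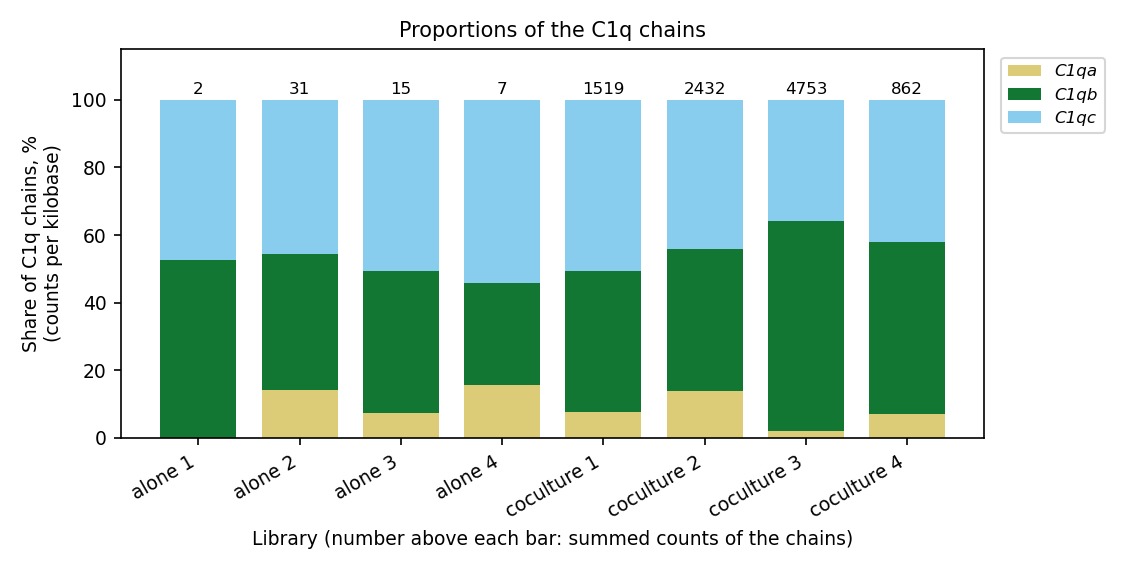
Share of each C1q chain in the summed level of the chains, in percent of counts per kilobase, for each library, with the summed counts above the bars. C1qa is the smallest share in every coculture and reaches its lowest value, 2.06%, in replicate 3, whereas the MK-alone bars rest on 2 to 31 counts.

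The C1q chains were not in a fixed ratio to the macrophage markers, whose summed level was 11.3-fold higher in cocultures. For each 1000 CPM of the 11 macrophage markers, the C1q chains held 2.38, 12.5, 7.21 and 5.56 CPM in MKs cultured alone and 59.9, 132.9, 198.1 and 57.2 CPM in cocultures. The coculture values varied although the summed macrophage markers varied little, at 2478 ± 105 CPM (SD, n = 4). Gpnmb, a lysosomal glycoprotein and the highest of these markers, accounted for much of the sum, with 12.9 ± 2.7 CPM (SD, n = 4) in MKs cultured alone and 1344 ± 185 CPM (SD, n = 4) in cocultures. Without Gpnmb, the coculture ratio was 239.4 ± 136.6 (SD, n = 4) in place of 112.0 ± 67.3. The scavenger receptor Cd163, also on the macrophage list, was too low to be tested and went the other way, with 8, 24, 12 and 7 counts in MKs cultured alone and 3, 4, 0 and 3 in cocultures. The part of macrophage RNA in the rise of the C1q chains was not tested.

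Cfp encodes properdin, the positive regulator of the alternative route. It had 25.2, 36.2, 35.7 and 43.1 CPM in MKs cultured alone and 76.8, 138.1, 120.1 and 97.5 CPM in cocultures. All cocultures were above all MK-alone libraries, and replicate 3 lay inside the range of the others. The log2 fold change of Cfp was 1.62 ± 0.27 (SE; edgeR, adjusted p = 0.00292), the smallest of the 6 genes called higher, and 1.545 without replicate 3. Cfp was lower relative to the macrophage markers, from 160.6 ± 34.2 (SD, n = 4) to 43.8 ± 11.5 CPM (SD, n = 4) per 1000 CPM of markers, and higher relative to the neutrophil markers, from 0.408 ± 0.085 to 14.8 ± 9.0 CPM per 1000 CPM.

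The anaphylatoxin receptors moved in opposite directions. C3ar1, the receptor for the C3 fragment C3a, had 30.02, 30.6, 25.5 and 14.3 CPM in MKs cultured alone. In cocultures C3ar1 had 302.6, 269.6, 48.3 and 248.2 CPM. Replicate 3 was the low coculture, yet it was above every MK-alone library. C3ar1 had a log2 fold change of 3.11 ± 0.55 (SE; edgeR, adjusted p = 0.00404), and 3.42 ± 0.23 without that replicate. In replicates 1, 2 and 4 of the cocultures C3ar1 was at 125.8, 113.1 and 95.02 CPM per 1000 CPM of summed macrophage markers. These values lay within the range of 69.9 to 161.5 in MKs cultured alone, whereas replicate 3 had 19.3. Much of the marker sum in cocultures was Gpnmb, at 1344 CPM on average against 12.9 CPM in MKs cultured alone. The ratios of Cfp and C3ar1 to the markers without Gpnmb were not taken, so a match with the other macrophage markers was not shown.

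C5ar1, the receptor for the C5 fragment C5a, had 384.2, 432.0, 477.5 and 423.3 CPM in MKs cultured alone. The cocultures had 189.4, 361.7, 134.9 and 151.6 CPM, with replicate 2 close to the MK-alone libraries. The log2 fold change of C5ar1 was -1.04 ± 0.31 (SE; edgeR, adjusted p = 0.0435), next to both cutoffs of the call, and -0.89 without replicate 3. The call was lost in 10 of the 15 alternative settings run, among them leaving out any library other than replicate 2 of the cocultures, and the log2 fold change ran from -1.40 to -0.45 over all settings. The summed neutrophil markers were lower 10.03-fold in cocultures, and C5ar1 was lower 2.05-fold, so that C5ar1 per 1000 CPM of neutrophil markers was 5.004 ± 0.42 CPM (SD, n = 4) in MKs cultured alone and 25.6 ± 10.5 CPM (SD, n = 4) in cocultures. How much of the C5ar1 signal came from neutrophils was not tested.

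The 2 genes taken as stromal-type also moved in opposite directions. Serping1, the C1 inhibitor gene, was at 0 counts in all 4 libraries of MKs cultured alone. In cocultures it had 102, 72, 61 and 55 counts, or 9.67, 9.38, 6.38 and 9.54 CPM. Replicates 1, 2 and 4 were close to each other, and replicate 3 was lower. Against the floor of 3 counts in each MK-alone library, the mean level of Serping1 was at least 19.5-fold higher in cocultures. It was called higher by edgeR's test (adjusted p = 0.00158), and also without replicate 3, but the call was lost when replicate number entered as a blocking term (adjusted p = 0.0865). Serping1 per 1000 CPM of MSC markers was 3.27, 2.43, 5.06 and 3.52 CPM in the cocultures, so replicate 3, the coculture with the lowest summed MSC markers, did not have less Serping1 for its MSC markers. The MSC markers Lepr and Kitl were at 0 in replicate 3, and Foxc1 was at 0 in all MK-alone libraries. Pdgfra, which encodes the CD140a used to sort the MSCs, had 367, 204, 2 and 143 counts in cocultures and 0, 5, 1 and 0 in MKs cultured alone. The highest MSC marker, Sparc, a collagen-binding matrix protein, had 0.548 ± 0.433 CPM (SD, n = 4) in MKs cultured alone and 962.9 ± 361.2 CPM (SD, n = 4) in cocultures. The part of MSC RNA in the Serping1 signal was not tested.

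C3, the protein on which all routes of activation converge, went the other way. It had 186.3, 314.8, 291.9 and 242.7 CPM in MKs cultured alone and 77.1, 66.4, 106.5 and 108.8 CPM in cocultures. Every coculture, replicate 3 included, was below every MK-alone library. C3 had a log2 fold change of -1.53 ± 0.25 (SE; edgeR, adjusted p = 0.00269), and -1.65 without replicate 3. Scaling the libraries to the MK and platelet markers took C3 below the fold cutoff, at -0.96, but that scaling raised the median of all genes to 0.59, and relative to that median C3 was at -1.55. C3 was present where MSC markers were nearly absent, so the stromal-type name did not describe its levels here. It was also lower by less than the neutrophil markers, with 3.02 ± 0.64 CPM per 1000 CPM of neutrophil markers in MKs cultured alone and 12.4 ± 8.2 CPM in cocultures (SD, n = 4 each). The part of neutrophil RNA in the C3 signal was not tested.

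**Figure D3:**
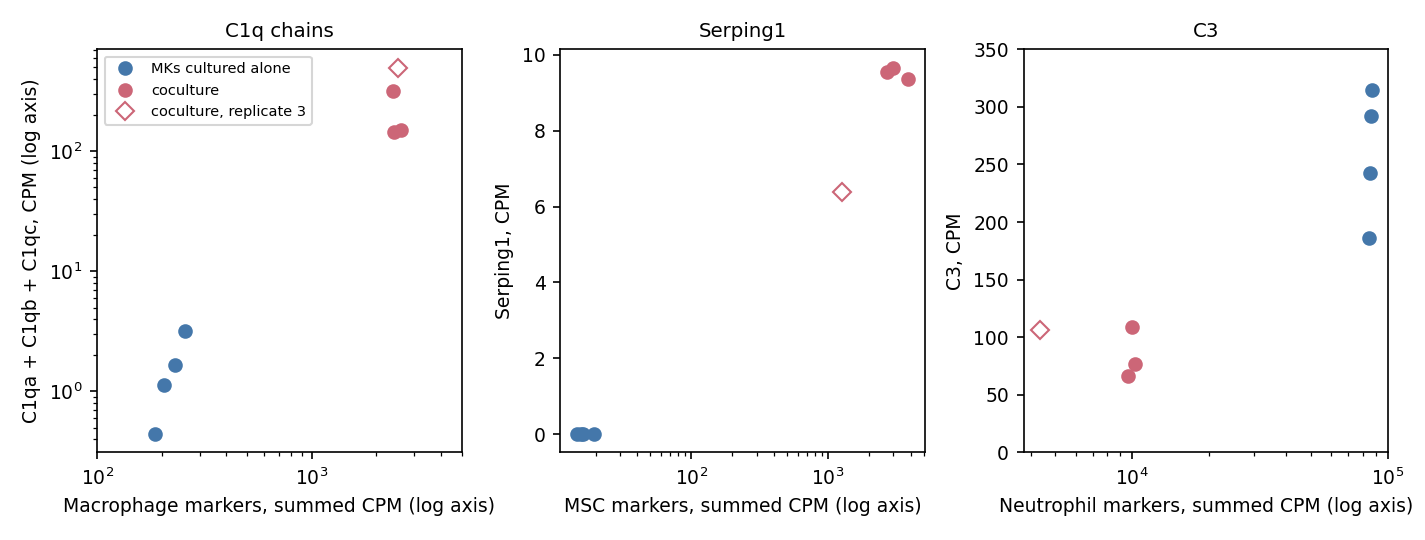
Summed CPM of the C1q chains against the macrophage markers (both axes logarithmic), of Serping1 against the MSC markers, and of C3 against the neutrophil markers (marker axes logarithmic), 1 point for each of the 8 libraries, with replicate 3 of the cocultures as an open diamond. Between the groups, the C1q chains and Serping1 are high where their markers are high. C3 is at 186.3 CPM or more in MKs cultured alone, where the neutrophil markers are at 84740 CPM or more. Among the cocultures, replicate 3 has the lowest neutrophil markers (4363 CPM) and C3 at 106.5 CPM. Replicates 1, 2 and 4 have C3 at 77.1, 66.4 and 108.8 CPM, with neutrophil markers at 10240, 9618 and 9985 CPM.

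The genes were also ordered by level per kilobase of transcript. In MKs cultured alone C5ar1 was highest, at 169.0 ± 15.1 CPM per kilobase (SD, n = 4), followed by C3 at 50.4 ± 11.1, Cfp at 21.4 ± 4.5 and C3ar1 at 5.83 ± 1.75. The ranges of these 4 genes did not overlap, and the C1q chains and Serping1 were all below them. In cocultures C1qb was highest on average, at 127.5 ± 100.9 CPM per kilobase, followed by C1qc at 100.5 ± 49.3, C5ar1 at 82.4 ± 41.0, Cfp at 66.1 ± 16.3 and C3ar1 at 50.5 ± 26.7. Neighbours among these 5 overlapped in range and were not separated beyond their spread. C3 and C1qa followed at 17.5 ± 4.1 and 16.6 ± 14.5, also overlapping, and Serping1 was lowest at 4.95 ± 0.89. The first place of C1qb rested on replicate 3, since without it C5ar1 was highest in cocultures too, at 92.2 ± 44.1 CPM per kilobase (SD, n = 3), with C1qc at 81.1 ± 37.3 and C1qb at 79.0 ± 34.2, and their ranges overlapped.

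Genes with the most similar pattern were sought by Pearson's correlation of log2(CPM + 1) over the 8 libraries, which share the same group difference, so the values only describe likeness. For Serping1 they were Prss23, Bgn, Steap1, Cdh11 and Cyp1b1, with r of at least 0.999. Bgn encodes the matrix proteoglycan biglycan and Cdh11 a cadherin of mesenchymal cells. For C1qa they were Pdia6, Acta1, Crabp2, Crtap and Abhd12, with r between 0.981 and 0.989. For C3 they were Syk, Rasgrp2, Lcn2, Chil1 and Maml1, with r between 0.978 and 0.991. Lcn2 encodes a protein of neutrophil granules, and its mean level went from 1074 to 171.0 CPM. None of the genes nearest to C1qa was on the macrophage marker list. Likewise, none of those nearest to Serping1 or C3 was on the MSC or neutrophil marker list. The cell source of these nearest genes was not tested.

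The wider complement list held 54 genes, of which 31 were in the table and 27 were tested. Of these, 9 were called higher and 6 lower, with a median log2 fold change of 0.88. Leaving aside the genes described above, 19 were tested, of which 3 were called higher and 4 lower, with a median of -0.24, beside 13.2% called higher and 7.31% called lower among all genes. Without replicate 3 of the cocultures the calls were 6 higher and 7 lower of these 19, beside 20.6% and 15.4% of all genes in that fit. Of the 31 genes, 6 were at 0 in that replicate (Fcna, Colec10, Cfb, Csmd1, Cr2 and Itgax). The terminal components were not analysed here.

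Among the genes that start the classical and lectin routes, 5 of 9 tested were called higher, beside 13.2% of all genes. All 5 passed the filter on low counts through the cocultures, where they were high, so this share only describes them. The C1q chains already described were 3 of the 5. The others were Masp1, a protease of the lectin route, and Colec12, a scavenger receptor with a collagen-like stem and a lectin domain. Masp1 and Colec12 had 8 and 31 counts summed over the MK-alone libraries. Masp1 went from 0.300 ± 0.278 to 88.7 ± 17.5 CPM (SD, n = 4 each), with a log2 fold change of 8.23 ± 0.66 (SE; edgeR, adjusted p = 6.2e-05). Colec12 went from 0.954 ± 0.745 to 65.5 ± 34.5 CPM (SD, n = 4 each), with a log2 fold change of 6.03 ± 0.74 (SE; edgeR, adjusted p = 0.000581). Of the proteases that act with C1q, C1ra had 1.28 ± 0.81 CPM in MKs cultured alone and 4.14 ± 1.56 CPM in cocultures and was not called (log2 fold change 1.67 ± 0.71 SE, edgeR, adjusted p = 0.123), but was called higher without replicate 3. C1s1, at 0 in all MK-alone libraries, had 82, 29, 1 and 28 counts in cocultures, which put it at least 9.21-fold above the floor. It did not pass the filter on low counts of the main fit. C1s1 was called higher by DESeq2 (adjusted p = 0.000269) and by edgeR without that filter (adjusted p = 0.0294). Fcnb, a ficolin of neutrophils, had 97.9 ± 22.0 CPM in MKs cultured alone and 20.5 ± 13.8 CPM in cocultures (adjusted p = 0.072, edgeR), and was called lower without replicate 3.

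Of the other regulators and enzymes, Clu, which encodes clusterin, had 13.3 ± 1.9 and 28.9 ± 20.9 CPM and was not called (log2 fold change 1.12, edgeR, adjusted p = 0.139). Replicate 3, at 59.9 CPM, was the high coculture for Clu, and without it the mean was 18.6 ± 3.9 CPM (SD, n = 3) and the log2 fold change 0.45. Clu was called higher with libraries scaled to the MK and platelet markers (edgeR, adjusted p = 0.0362). Cfb, a protease of the alternative route, was not called either, at 0.753 ± 0.668 and 3.54 ± 2.62 CPM, and was at 0 in replicate 3. Without that replicate Cfb was called higher, with a log2 fold change of 2.55 (edgeR, adjusted p = 0.00147).

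None of the 3 membrane inhibitors tested was called by edgeR, although 2 had an unadjusted p under 0.05, DESeq2 called those 2, and the groups did not overlap in any of the 3, a pattern held upward by 19.3% and downward by 21.1% of all genes. Cd59a, which blocks the membrane attack complex, had 3.24 ± 2.18 CPM in MKs cultured alone and 15.4 ± 4.4 CPM in cocultures (adjusted p = 0.0514). Cd55, which speeds the decay of the C3-splitting enzymes, had 118.7 ± 19.9 and 16.6 ± 11.4 CPM (adjusted p = 0.0625), with 1 count in replicate 3. Cr1l, the rodent inhibitor Crry, had 163.2 ± 11.9 and 90.3 ± 58.8 CPM, with 23 counts in replicate 3. Without that replicate, Cd59a was called higher and Cd55 lower.

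Receptors were the role with most calls downward, 5 of 9 tested, against 1 upward, beside 7.31% and 13.2% of all genes, and with libraries scaled to the MK and platelet markers 2 were called downward and 2 upward, beside 3.46% and 24.7% of all genes. C3ar1 was the only one called higher under the main test. Itgam and Itgb2, the subunits of complement receptor 3 that binds fragments of C3, went from 610.3 ± 26.5 to 155.4 ± 13.4 CPM and from 324.3 ± 43.3 to 133.8 ± 27.6 CPM (SD, n = 4 each). Their log2 fold changes were -1.97 ± 0.16 and -1.28 ± 0.21 (SE; edgeR, adjusted p = 5.7e-05 and 0.00283). C5ar2, the second receptor for C5a, fell from 11.1 ± 2.5 to 1.61 ± 0.92 CPM (edgeR, adjusted p = 0.0138). Cd93, a membrane lectin once described as a C1q receptor, fell from 108.2 ± 9.6 to 49.1 ± 14.6 CPM (edgeR, adjusted p = 0.0145). C1qbp, a mostly mitochondrial protein that can bind C1q, had 66.8 ± 12.0 and 122.7 ± 22.1 CPM and a log2 fold change of 0.88 (edgeR, adjusted p = 0.0201), below the fold cutoff. Itgam and Itgb2 are abundant in neutrophils, whose markers moved the same way, and the part of neutrophil RNA in these falls was not tested.

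**Figure D4:**
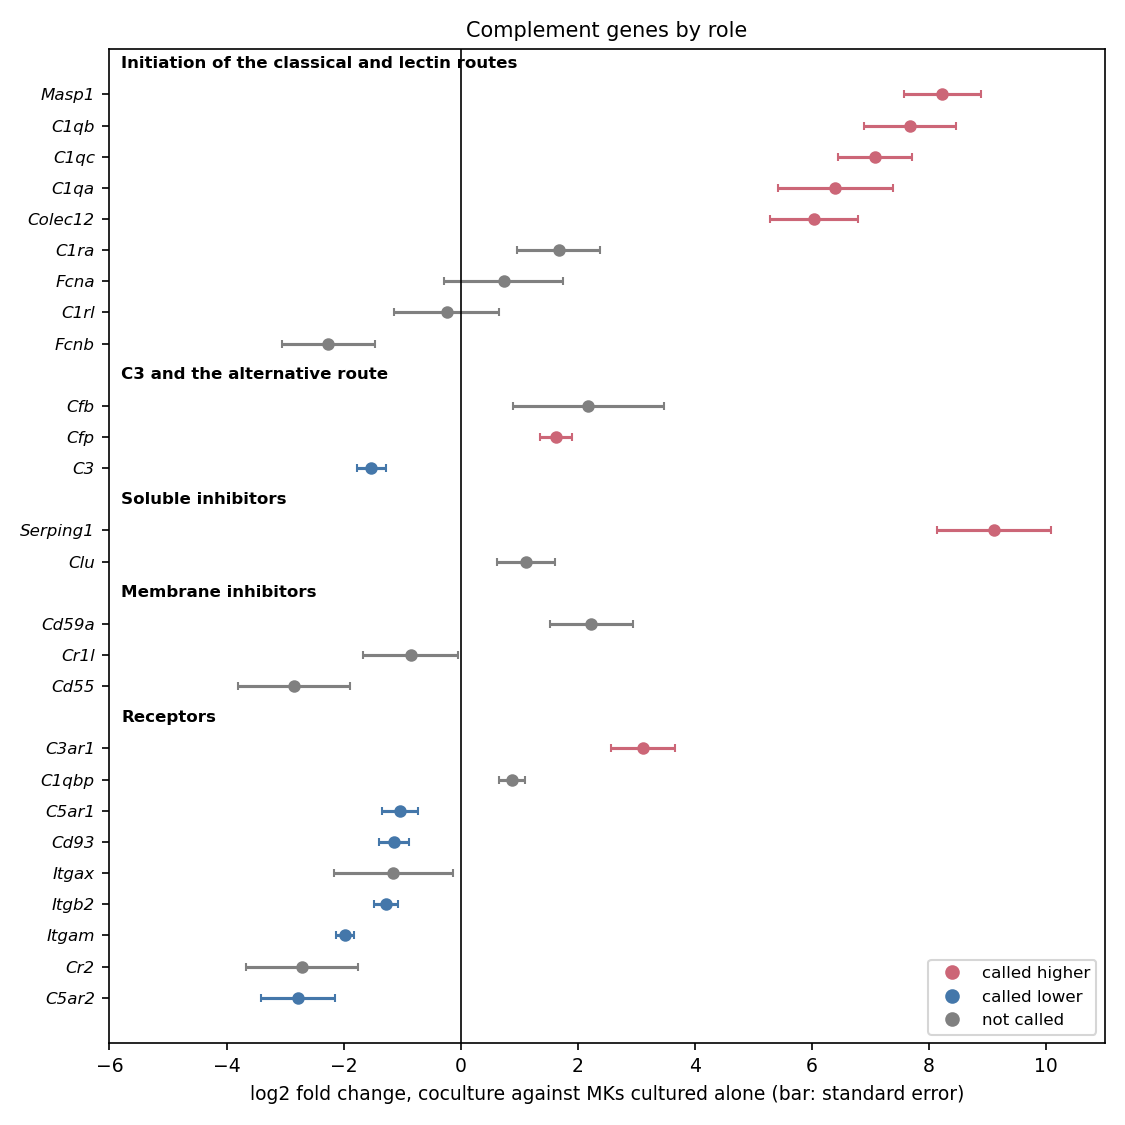
Log2 fold change with its standard error for complement genes tested, coculture against MKs cultured alone, grouped by role and coloured by the call. Of the genes called higher, 5 belong to the start of the classical and lectin routes, and these passed the filter on low counts through the cocultures. Of the 6 genes called lower, 5 are receptors. The Serping1 value depends on the prior count of the fit, because the gene was at 0 in MKs cultured alone.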

How the data were processed

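Cells were cultured for 18 hours and RNA was made into SMART-Seq HT libraries. The authors filtered paired-end reads with fastp, quantified them with kallisto on mm10, and deposited raw counts per gene, in whole numbers without normalization. How transcripts were summed to genes is not given in the sources used here, nor whether strand was used, which leaves counts of near-identical copies and of overlapping or antisense genes uncertain. The study's DESeq2 model held a batch term; the sources used here do not name the batches, so batch was not modelled.

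Groups came from the labels. Counts were analysed with edgeR 4.0.16 in R 4.3.3 (TMM factors, filterByExpr, robust quasi-likelihood test, Benjamini-Hochberg over 11722 genes), without covariates. A call required a fold change of 2 or more, an adjusted p of 0.05 or less and a group mean of 1 CPM or more, the study's cutoffs with CPM in place of TPM. CPM used TMM-scaled library sizes. Standard errors were derived from the F statistic. Libraries totalled 4939874 to 12523616 counts, so that a floor of 3 counts lay at 0.284 to 0.662 CPM, and floors and intervals cover counting error only, since reads carried no molecular identifiers. In simulated counts for this comparison, with 200 of 11618 genes changed 8-fold, edgeR recovered 190 and called 11 others. The simulated counts had the same dispersion for every gene and no library like replicate 3 of the cocultures. They therefore do not give the recovery in the real libraries or at smaller fold changes. Alternatives were DESeq2 1.42.0, other scalings and filters, the replicate number as a block, and each library left out. Chi-square values of counts, taken for pairs within each group only, showed no pair of libraries that agree within sampling noise.

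The genes named were the 9 complement genes, other complement genes called, the highest marker of each list, and the 5 genes nearest in pattern to C1qa. The nearest genes of C4b were planned, and those of Serping1 and C3 were taken in their place after the values were seen, as were the uncalled complement genes and other markers named and the ratios to neutrophil markers. Members, lists and motifs were chosen with earlier results of these data known. Of the highest markers not named in the results, Pf4 had 841.2 and 1070 CPM, S100a8 48460 and 4404 CPM, Ly6c2 933.8 and 144.2 CPM, Ms4a1 380.9 and 53.8 CPM and Tek 30.4 and 9.49 CPM in MKs cultured alone and cocultures, on average. The monocyte list had 1 gene called higher and 2 lower of 5 tested, the B cell list 4 lower of 7, and the endothelial list 1 lower of 2. One gene of the wider complement list enters the counts but is not reported here. Transcript lengths and positions came from GENCODE vM21 (GRCm38).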

Additional observations from a re-analysis of the deposited data

Results flagged for a closer look

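In 3 of 35 groups of 4 values examined, 1 library lay far from the other 3, where chance alone flags about 1 in 20 groups, or 1.75 of these. C1qa had a log2(CPM + 1) of 5.35 in replicate 2 of the cocultures, against 3.38 to 3.47 in the other cocultures. C3ar1 had 5.63 in replicate 3 of the cocultures, against 7.96 to 8.25. Serping1 had 2.88 in replicate 3, against 3.38 to 3.42. Replicate 3 is the library in which 1012 genes detected elsewhere were at 0, and the part of that in these values was not tested.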

How the results depend on the processing

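Over 15 alternative settings no direction was reversed, and C1qa, C1qb, C1qc, Cfp and C3ar1 kept their call in all 15, C3 and Serping1 in 14 and C5ar1 in 5. The causes of the changes below were not tested. Over all genes 2401 were called (1544 higher, 857 lower), DESeq2 called 3641 (1345 lower), and scaling to the MK and platelet markers gave 2890 higher and 406 lower, a share of 87.7% higher against 64.3%, with the median of all genes shifted to 0.59. Under that scaling C5ar1 was at -0.45 and C3 at -0.96 (-1.05 and -1.55 relative to that median), so that 0 of the 8 genes (edgeR; C3 had an adjusted p of 0.0149 but was under 2-fold) and 2 of the wider complement list were called lower. With library sizes alone C5ar1 was at -0.98 and 1 of the 8 genes was called lower. Without Gpnmb the C1q chains were at 239.4 CPM per 1000 CPM of macrophage markers in cocultures.

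Deviations of same-numbered libraries correlated at 0.369, 0.0198, 0.15 and 0.028, all positive, and those of different numbers at -0.282 to 0.099. Not every library correlated best with its own number, since replicates 2 and 4 of MKs cultured alone did so with coculture replicate 3. Whether the replicate number pairs the libraries was therefore not settled by these values. With the replicate number as a block, 1669 genes were called, Serping1 (9.07) and C5ar1 (-1.15) were not, and 1 of the 8 genes was called lower. Of the other complement genes named, C5ar2 lost its call.

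Leaving out each library in turn gave 1634 to 4420 called genes, 1071 to 2530 higher and 539 to 1890 lower, with the highest counts without replicate 3 of the cocultures (57.2% higher). It gave 1 to 2 of the 8 genes and 3 to 8 of the complement list called lower, and C5ar1 from -1.40 to -0.87.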
